A study of Mus musculus with 6 samples.

Results

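The genes described here encode enzymes of the tricarboxylic acid (TCA) cycle and related enzymes. They also encode the pyruvate dehydrogenase complex with its kinases and phosphatases, and the mitochondrial pyruvate carrier. The genes were taken by symbol from a list of these enzymes. The list holds the cytosolic Aco1, Idh1 and Mdh1 and the malic enzymes Me2 and Me3, but not succinate dehydrogenase or mitochondrial aconitase. All 31 symbols were found among the 54532 genes of the deposited table, and 30 had enough reads to be tested. The 31st, Me3, had 5 reads over the 6 libraries. The study compared gene expression in primary hepatocytes from 2 groups of C57BL/6 mice aged 32 to 34 weeks, with 3 libraries per group. The XCON group had the genotype Xbp1FL/FL, and the XCKO group had the genotype Xbp1ΔHep, in which the gene is deleted in hepatocytes. Both groups had eaten a high-fat diet (HFD) for 26 weeks before the cells were isolated, so no library came from mice on a control diet. The sources used here name neither the driver of the deletion nor the mouse behind each library. The p-values therefore measure the spread between these libraries.

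Pyruvate made by glycolysis enters mitochondria through the carrier formed by MPC1 and MPC2. The pyruvate dehydrogenase complex turns it into acetyl-CoA, which citrate synthase joins to oxaloacetate, and the cycle then oxidises it and passes electrons to the respiratory chain. Kinases (PDK) switch the complex off by phosphorylation and phosphatases (PDP) switch it on again. In liver, fasting and fat oxidation are known to raise Pdk4 and to divert pyruvate to carboxylation for gluconeogenesis. XBP1 drives genes of the unfolded protein response.

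The promoters of the 4 genes that rose, and of Pdk4, which had the largest log2 fold change but did not pass the test, are shown to let the upstream sequences of these genes be compared. Each is the 250 bases before a start annotated by RefSeq on GRCm38.p6, 5′ to 3′ on the gene's own strand. The RefSeq start can differ from the gene's 5′ end in the deposited table. The starts of Sucla2, Idh3b and Pdk4 lie inside the gene as the table places it. Capitals mark the CCAAT box, read as CCAAT or, on the other strand, ATTGG. The windows are chr1:175625636-175625885 (minus strand), chr14:73552536-73552785 (plus strand), chr2:130284452-130284701 (minus strand), chr11:95041372-95041621 (minus strand) and chr6:5496279-5496528 (minus strand).
Fh1: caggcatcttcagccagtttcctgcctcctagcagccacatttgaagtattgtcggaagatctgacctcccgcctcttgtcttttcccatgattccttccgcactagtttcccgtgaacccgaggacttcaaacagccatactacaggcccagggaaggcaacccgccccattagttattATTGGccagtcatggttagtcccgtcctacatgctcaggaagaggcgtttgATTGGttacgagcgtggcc
Sucla2: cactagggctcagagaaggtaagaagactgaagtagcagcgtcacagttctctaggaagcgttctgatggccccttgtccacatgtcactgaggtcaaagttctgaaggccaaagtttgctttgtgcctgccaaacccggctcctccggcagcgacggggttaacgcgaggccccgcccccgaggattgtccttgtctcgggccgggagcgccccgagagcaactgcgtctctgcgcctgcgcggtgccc
Idh3b: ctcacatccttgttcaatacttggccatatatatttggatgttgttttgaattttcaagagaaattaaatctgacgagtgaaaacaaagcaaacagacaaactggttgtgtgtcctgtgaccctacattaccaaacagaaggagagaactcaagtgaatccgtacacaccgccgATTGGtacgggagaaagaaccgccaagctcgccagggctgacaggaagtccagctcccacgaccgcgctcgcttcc
Pdk2: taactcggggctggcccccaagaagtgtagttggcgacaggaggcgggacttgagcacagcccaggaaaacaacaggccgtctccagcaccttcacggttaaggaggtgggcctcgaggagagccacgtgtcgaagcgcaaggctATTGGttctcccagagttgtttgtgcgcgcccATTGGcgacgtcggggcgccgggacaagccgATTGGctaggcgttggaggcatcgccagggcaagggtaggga
Pdk4: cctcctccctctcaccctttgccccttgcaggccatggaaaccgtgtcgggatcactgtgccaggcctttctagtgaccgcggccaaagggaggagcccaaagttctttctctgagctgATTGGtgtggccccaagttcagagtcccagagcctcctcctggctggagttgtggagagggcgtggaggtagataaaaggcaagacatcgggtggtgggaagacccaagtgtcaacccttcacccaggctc

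The Fh1 window held 2 CCAAT boxes, Idh3b 1, Pdk2 3, Pdk4 1 and Sucla2 0. Promoter windows were found for 28 of the 31 genes, 37 windows in all because some genes have several starts. A CCAAT box lay in 19 of the 37 (51.4%), against 33.8% of the 32851 windows of all genes. Of the 19 windows, 4 belong to alternative starts of Ogdh, and the 19 come from 16 genes. The core letters of the XBP1 site, TGACGTG on either strand, lay in 5 windows (13.5%) of Ogdh, Pdhb and Idh3g, against 1.65% of all windows. Of the 5 windows, 3 belong to alternative starts of Ogdh. None of the 5 promoters printed above held TGACGTG. The NRF1 core GCATGCGC lay in 2 windows, both of Ogdh (2.26% of all windows). The PPARα and RXR element, AGGTCA repeated after 1 base, and the estrogen-related receptor element TCAAGGTCA, which ends in the same AGGTCA, were in 0 of the 37 windows. They were in 0.0335% and 0.387% of all windows. A match describes the letters and does not show that a factor binds.

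Most of these genes had higher mean counts in XCKO, by less than 2-fold, and few passed the test. Of the 30 tested, 4 rose, 1 fell and 25 did not pass an adjusted p of 0.05 in the quasi-likelihood test of edgeR, adjusted by Benjamini-Hochberg over all 14873 genes tested. The 5 are 16.7% of the 30, where 9.27% of all tested genes passed (5.21% higher and 4.05% lower). The genes that rose were Pdk2, Fh1, Sucla2 and Idh3b, and the gene that fell was Me2. The log2 fold change was above 0 for 25 of the 30, where 46.5% of all tested genes were above 0, but it was below 0 for Idh2, Idh3g, Ogdh and Mpc1 with library totals alone and for Mpc1 with a gene length offset. The median log2 fold change was 0.43, against −0.05 for all genes tested. The libraries of the groups did not overlap for 17 of the 30 (56.7%), 15 higher and 2 lower, beside 35.7% of all tested genes. An unadjusted p under 0.05 was found for 17 (56.7%, against 29.7% of all genes). Another 5 genes had an adjusted p between 0.05 and 0.1, namely Pdha1 (0.053), Suclg1 (0.054), Mdh2 (0.055), Pdhb (0.091) and Pdk4 (0.097).

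The calls depended on single libraries and on the scaling. With 1 library left out, the count of 5 became 0 without XCON 1 (edgeR, 15 at an unadjusted p under 0.05), 1 without XCKO 3, 2 without XCON 2, XCKO 1 or XCKO 2, and 4 without XCON 3. No gene of the 30 passed in all 6 of these fits, beside 228 of the 14873 genes tested. Over all genes the count of 1378 became 309 to 810 with 1 library left out. Scaling by library totals alone moved the median of all genes by −0.26. The median of the list lay 0.47 above it, against 0.48 with the TMM scaling used here, but edgeR then called 0 members higher (3 at an unadjusted p under 0.05) and Me2 alone lower. DESeq2 called 13 of the 30, beside 2538 of the 15226 genes to which it gave an adjusted p. Calls by limma-voom were 8 of the 30, beside 1454 of 14873 genes. DESeq2 thus called more genes over the whole table as well, where edgeR called 1378.

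**Figure D1:**
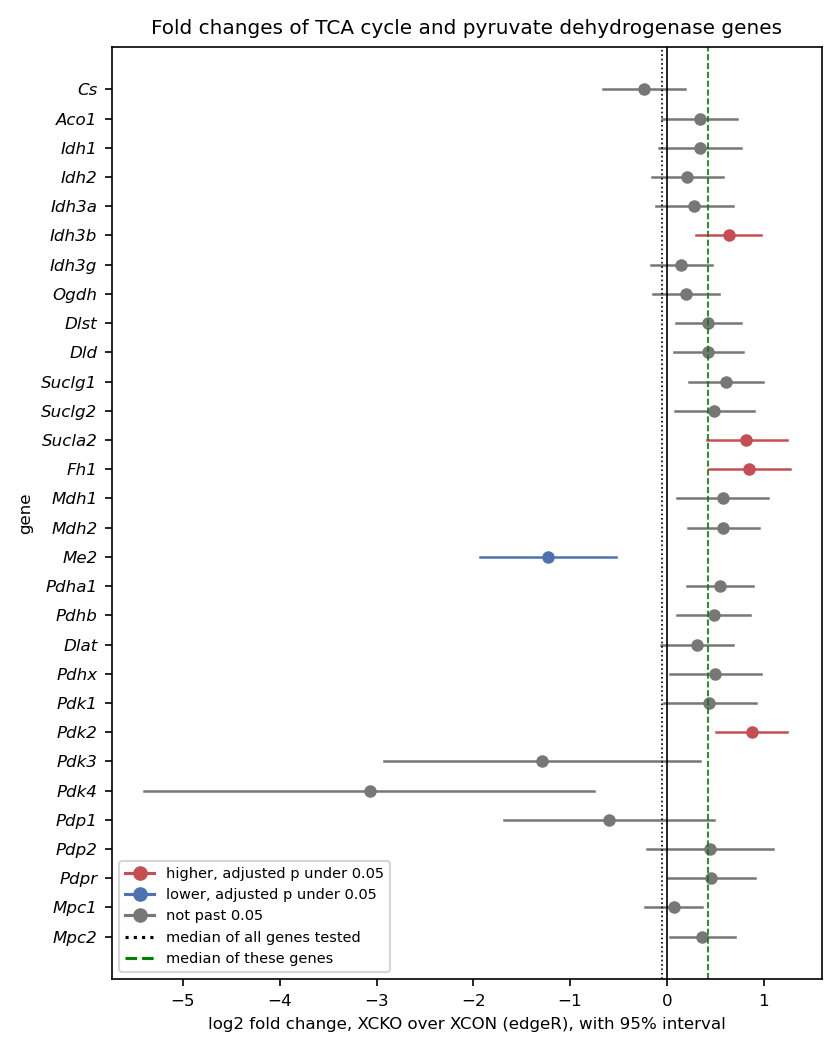
Log2 fold change of each of the 30 tested genes (XCKO over XCON, edgeR) with its 95% interval, with the median of all genes tested (−0.05, dotted) and of these genes (0.43, dashed). With TMM scaling 25 of the points lie to the right of 0 (Idh2, Idh3g, Ogdh and Mpc1 do not with library totals alone), and the intervals of Pdk4 and Pdk3 are the widest.

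The libraries themselves held 23919355 to 27240079 counts. Xbp1 was lower in every XCKO library, at 171 to 319 CPM (counts scaled to a common library total) in XCON and 39.3 to 67.4 CPM in XCKO, a log2 fold change of −2.24 ± 0.29 (SE; edgeR adjusted p 0.0084). Mitochondrially encoded transcripts took 22.8% of the counts of XCON 1, against 8.99% to 13.1% of the others, and the count of 5 was the same with these transcripts left out. Hepatocyte markers summed to 66400 to 88500 CPM in XCON and 90300 to 123000 CPM in XCKO, with a median log2 fold change of 0.65 over 12 markers, 1 of them higher and 0 lower past the test. Markers of macrophages (1470 to 2860 CPM in XCON and 499 to 1420 in XCKO, 1 of 12 lower), cholangiocytes (251 to 583 and 82.8 to 162, 0 of 5 tested past 0.05) and lymphocytes (55.5 to 118 and 16.3 to 52.9, 0 of 7) had lower sums in every XCKO library. Stellate markers summed to 321 to 682 CPM in XCON and 130 to 321 in XCKO, with 4 of 12 lower and XCKO 1 level with XCON 1. The sums overlapped for endothelial markers (592 to 620 and 463 to 961 CPM, 0 of 10 past the test) and adipocyte markers (56.4 to 57.4 and 57.1 to 63.5, 0 of 2 tested), while erythroid sums were higher in every XCKO library, at 407, 77.4 and 940 CPM against 42.3 to 70 CPM in XCON (median log2 fold change 4.45, 0 of 5 past the test). None of these markers was at 0 in all libraries apart from Lep of the adipocyte list. The hepatocyte and erythroid sums moved in the direction of the genes that rose. The macrophage, stellate, cholangiocyte and lymphocyte sums moved in the direction of Me2. The part of these cell types in the results was not tested. In bulk RNA, fewer cells of a type and less RNA per cell cannot be told apart.

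**Figure D2:**
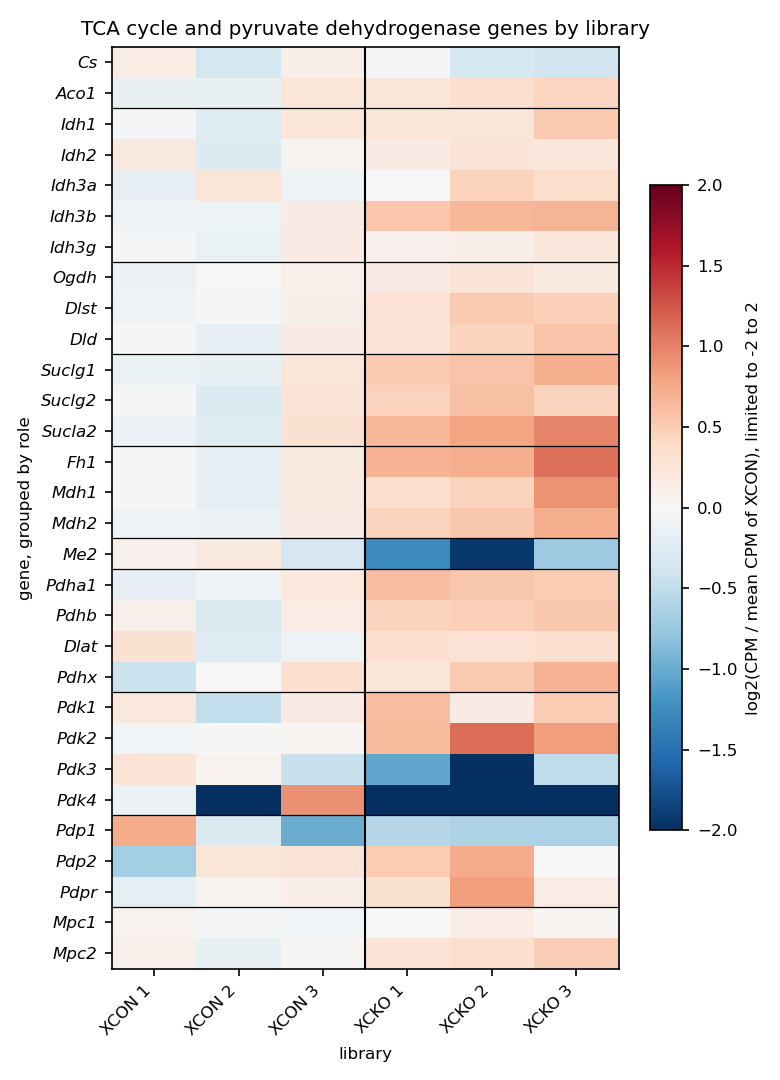
Log2 ratio of the CPM of each library to the XCON mean of the same gene, for the 30 tested genes in order of role, with colours limited to 2 in either direction. Sucla2, Fh1, Idh3b and Pdk2 are above the XCON mean in all 3 XCKO libraries and Me2 is below it in all 3.

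Of the citrate synthase gene Cs and the aconitase gene Aco1, 0 of 2 passed, in edgeR, DESeq2 or limma-voom. Neither had an unadjusted p under 0.05. The mitochondrial aconitase of the cycle is not on the list. Cs, the citrate synthase that joins acetyl-CoA to oxaloacetate, had 113, 80.2 and 112 CPM in XCON libraries 1 to 3 against 100, 80.2 and 78.5 CPM in XCKO libraries 1 to 3, the order used throughout. The groups overlapped, and the log2 fold change was −0.24 with a 95% interval of −0.66 to 0.19, on the other side of 0 from most of the list. Aco1, the cytosolic aconitase that doubles as an iron-responsive RNA-binding protein, averaged 157 ± 26 CPM (SD, n = 3) in XCON and 198 ± 13 CPM in XCKO. The groups touched at 186 CPM, and the interval of its log2 fold change, 0.34, was −0.05 to 0.73.

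Of the 5 isocitrate dehydrogenase genes, 1 rose and 4 did not pass. Idh3b, a regulatory subunit of the NAD-linked enzyme of the cycle (ENSMUSG00000027406, mm10 chromosome 2, 130279309 to 130284547, minus strand), had 74.3, 72.4 and 87.7 CPM in the XCON libraries and 115, 124 and 125 CPM in the XCKO libraries. Every XCKO library was above every XCON library. The difference was 1.55-fold, a log2 fold change of 0.64 ± 0.15 (SE; edgeR adjusted p 0.034), and it passed without XCON 3 but not without any other single library (largest adjusted p 0.096). The catalytic subunit gene Idh3a went from 23.3 ± 3.7 to 28.4 ± 4.5 CPM and the other regulatory subunit gene Idh3g from 43.5 ± 4.6 to 48.3 ± 2.6 CPM (SD, n = 3), neither past the test. Per gene length, Idh3b made up 51.3% to 53.5% of the FPKM (fragments scaled to gene length and library total, as deposited) of the 3 subunit genes in XCON and 59.6% to 60.9% in XCKO, and Idh3g 35.5% to 37.9% and 29.4% to 30.8%. Neither range overlapped between the groups. The ratio of Idh3b to the catalytic Idh3a did overlap, at 5.32, 3.89 and 5.97 in XCON and 7.28, 5.71 and 6.25 in XCKO. That of Idh3g to Idh3a overlapped too. The NADP-linked enzymes did not pass, with log2 fold changes of 0.34 for the cytosolic Idh1 (interval −0.08 to 0.77) and 0.21 for the mitochondrial Idh2 (−0.15 to 0.58).

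The oxoglutarate dehydrogenase complex, which makes succinyl-CoA, held 3 genes and none passed in edgeR (2 had an unadjusted p under 0.05, and DESeq2 called Dlst). Its first enzyme, Ogdh, had 151, 164 and 176 CPM in XCON and 183, 196 and 185 CPM in XCKO, a log2 fold change of 0.20 (interval −0.14 to 0.54). Dlst, its second enzyme, had a log2 fold change of 0.43 ± 0.15 (SE) and Dld, the third enzyme, which the pyruvate complex shares, 0.43 ± 0.16, with adjusted p-values of 0.10 and 0.12 by edgeR. For each of the 3 genes the groups did not overlap.

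Succinate-CoA ligase, the step that makes a nucleotide triphosphate directly, has a shared α subunit and 2 alternative β subunits. Sucla2, the β subunit of the ATP-forming enzyme (ENSMUSG00000022110, chromosome 14, 73525319 to 73596142, plus strand), had 52.6, 47.8 and 69.9 CPM in XCON and 90, 98.6 and 112 CPM in XCKO. All XCKO libraries were above all XCON libraries. It rose 1.77-fold, by 0.82 ± 0.18 on the log2 scale (SE; edgeR adjusted p 0.030), and passed without XCON 3 but not without any other single library (largest adjusted p 0.089). The α subunit gene Suclg1 (96.9 ± 16 and 148 ± 11 CPM, SD, n = 3) and the GTP-forming β subunit gene Suclg2 (186 ± 34 and 262 ± 15 CPM) did not pass in edgeR, with log2 fold changes of 0.61 ± 0.17 and 0.49 ± 0.18 (SE). DESeq2 called both (adjusted p 0.011 and 0.049) and limma-voom called Suclg1 (0.046). Per gene length Suclg2 remained the more abundant β subunit in every library, at 73.3% to 75% of the FPKM of both in XCON and 65.9% to 71% in XCKO. Suclg2 has a processed pseudogene on the X chromosome, Gm15163, which is 98.9% identical over 1302 bases and held 5.14% as many reads.

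Fumarase and the malate dehydrogenases close the cycle, and 1 of the 3 genes rose. Fh1, the fumarase gene that hydrates fumarate to malate (ENSMUSG00000026526, chromosome 1, 175600374 to 175625635, minus strand), had 119, 109 and 138 CPM in XCON and 198, 201 and 263 CPM in XCKO. The XCKO libraries lay above the XCON libraries without overlap, with XCKO 3 the highest. Fh1 rose 1.81-fold, by 0.85 ± 0.18 on the log2 scale (SE; edgeR adjusted p 0.027). Without XCON 1, XCON 2 or XCKO 3 it missed the threshold, with adjusted p-values up to 0.079. Mdh1, the cytosolic malate dehydrogenase of the malate-aspartate shuttle, had the highest level per length of the list, from 124 ± 18 to 191 ± 45 FPKM (SD, n = 3). The mitochondrial enzyme gene Mdh2 had 30.9 ± 3.9 and 47.5 ± 5.2 FPKM. Both had a log2 fold change of 0.58 in counts, with adjusted p-values of 0.10 and 0.055 by edgeR. DESeq2 called both (0.034 and 0.0098) and limma-voom called Mdh2 (0.049). Mdh1 took 79.6% to 80.3% of the FPKM of both genes in XCON and 78.4% to 81.9% in XCKO.

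**Figure D3:**
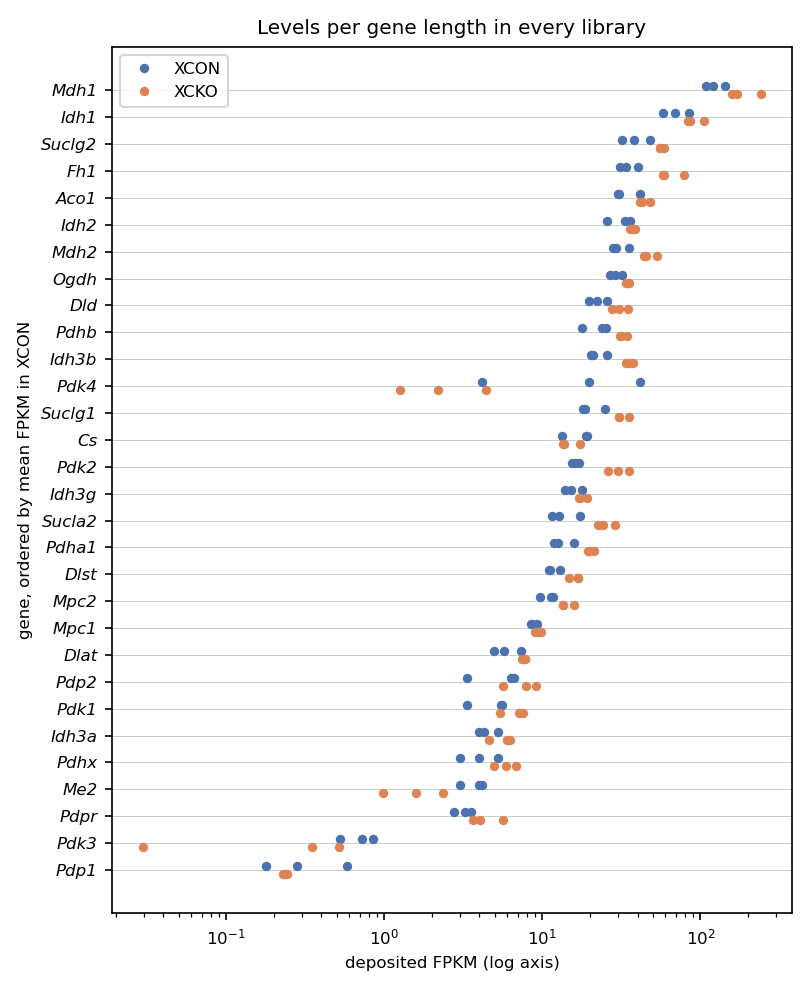
Deposited FPKM of the 30 tested genes in each library on a log axis, ordered by the XCON mean. Mdh1 is highest, with 124 ± 18 FPKM in XCON (SD, n = 3), and Pdp1 and Pdk3 lie below 1 FPKM in every library.

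The malic enzymes turn malate into pyruvate. Me2, the mitochondrial NAD-linked form (ENSMUSG00000024556, chromosome 18, minus strand), was 1 of the 2 genes whose XCKO libraries all lay below the XCON libraries, with 10, 10.7 and 7.44 CPM in XCON and 3.89, 2.45 and 5.66 CPM in XCKO. Me2 fell 2.35-fold, a log2 fold change of −1.23 ± 0.31 (SE; edgeR adjusted p 0.042). It passed without XCKO 3 but not without any other single library, and its largest adjusted p was 0.11. The macrophage, cholangiocyte and lymphocyte marker sums given above were also lower in every XCKO library. The stellate sum was level between XCKO 1 and XCON 1. The part of these cell types in the value of Me2 was not tested. Me3, the mitochondrial NADP-linked form, had 1, 2 and 1 counts in XCON and 0, 1 and 0 in XCKO and was not detectable as different at this depth.

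Within the pyruvate dehydrogenase complex the 4 subunit genes had log2 fold changes of 0.31 to 0.55 and none passed in edgeR (3 had an unadjusted p under 0.05, DESeq2 called Pdha1 and Pdhb, and limma-voom called Pdha1). Pdha1, the X-linked α subunit of the first enzyme and the target of the kinases, had 45.7, 48.9 and 59.6 CPM in XCON and 78.9, 74.3 and 72.8 CPM in XCKO. The groups did not overlap, and its log2 fold change was 0.55 ± 0.15 (SE; edgeR adjusted p 0.053). Pdha1 shares 603 exon bases with Map3k15 on the opposite strand, a gene with 2.56% as many reads, and the sources used here do not say whether counting used strand. Pdhb, the β subunit of the same enzyme, went from 88.5 ± 14 to 124 ± 4.8 CPM (SD, n = 3) without overlap between the groups. Dlat, the acetyltransferase core, went from 30.1 ± 6.2 to 37.4 ± 0.48 CPM, and Pdhx, which anchors Dld to the core, from 16.4 ± 4.2 to 23.2 ± 3.5 CPM. The groups overlapped for both.

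The kinase genes of the complex did not move together: Pdk2 rose, while Pdk4 and Pdk3 had lower means in XCKO and did not pass. Pdk2, a kinase abundant in liver (ENSMUSG00000038967, chromosome 11, 95026258 to 95041354, minus strand), had 50.6, 53.4 and 54.0 CPM in XCON and 81.8, 114 and 94.4 CPM in XCKO. It rose 1.84-fold, by 0.88 ± 0.16 on the log2 scale (SE; edgeR adjusted p 0.018, the smallest of the 30). The 3 XCON libraries lay close together and all XCKO libraries were higher. It did not pass without XCON 1 (adjusted p 0.056) or XCKO 3 (0.053), nor with library totals alone (0.051).

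Pdk4, the kinase known to respond to fasting and fat (ENSMUSG00000019577, chromosome 6, 5483351 to 5496309, minus strand), varied widely among the XCON libraries. It had 71.2, 15.3 and 146 CPM in XCON and 15.3, 7.84 and 4.37 CPM in XCKO. XCON 2 was at the level of XCKO 1, so the groups touched, while XCON 1 and XCON 3 were above every XCKO library. The log2 fold change was −3.07 ± 0.93 (SE; edgeR adjusted p 0.097), 8.43-fold lower in XCKO. The edgeR adjusted p was 0.037 without XCON 2 and between 0.15 and 0.28 without any other single library. It was 0.16 in limma-voom and 0.012 in DESeq2. The authors' deposited table, from the same libraries, also gives 0.012, with a log2 fold change of −3.06. Pdk1, a kinase induced by hypoxia, had 38.1 ± 9.4 and 51.8 ± 8 CPM (SD, n = 3) with overlapping groups. Pdk3 was near the lower limit of the test, at 2.23, 1.94 and 1.35 CPM in XCON and 0.891, 0.0776 and 1.30 CPM in XCKO, with a log2 fold change of −1.29 (interval −2.92 to 0.34).

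Set side by side per gene length, the summed FPKM of the 4 kinase genes was 41.6, 24.4 and 64.2 in XCON and 38.1, 42.9 and 39.2 in XCKO. The sums overlapped between the groups, whereas the shares of Pdk2 and of Pdk4 in them did not. Pdk2 contributed 37.4%, 66.2% and 26.4% of the sum in XCON, in the order of the libraries, against 67.9%, 82.3% and 77.4% in XCKO. Pdk4 contributed 47.3%, 17.1% and 64.3% in XCON and 11.5%, 5.1% and 3.22% in XCKO.

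**Figure D4:**
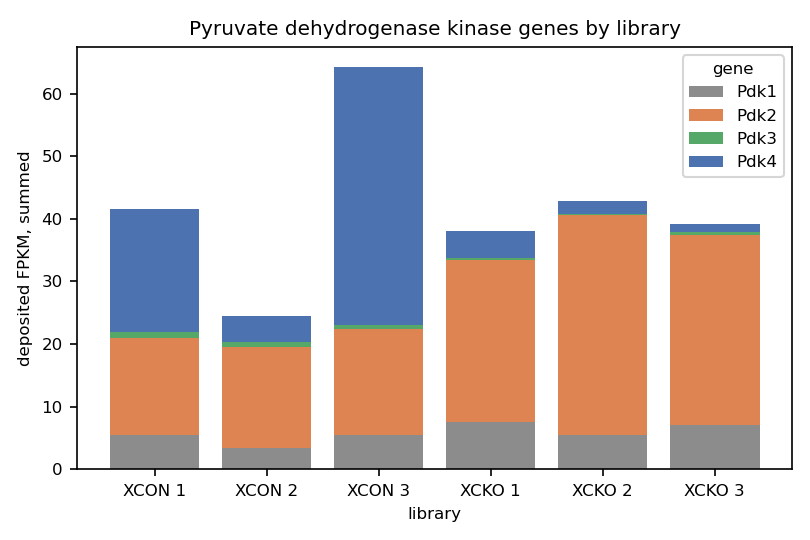
Deposited FPKM of Pdk1, Pdk2, Pdk3 and Pdk4 stacked for each library. Pdk4 makes up 17.1% to 64.3% of the height in XCON and 3.22% to 11.5% in XCKO, and the total ranges from 24.4 to 64.2 in XCON and from 38.1 to 42.9 in XCKO.

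None of the 3 phosphatase genes passed in edgeR or DESeq2, and 1 had an unadjusted p under 0.05. Pdp2, the more abundant catalytic subunit in these libraries, had 19.7, 37.5 and 37.6 CPM in XCON and 44.9, 52.9 and 31.5 CPM in XCKO. Pdp1, the calcium-activated catalytic subunit known from muscle, lay between 0.811 and 2.69 CPM in all libraries and made up 2.65% to 14.7% of the FPKM of both in XCON and 2.44% to 3.99% in XCKO. Pdpr, the regulatory subunit, had a log2 fold change of 0.46 (interval 0.01 to 0.91) and an adjusted p of 0.16 by edgeR. Pdpr shares 169 exon bases with 9430091E24Rik on the opposite strand, which held 11.7% as many reads.

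The pyruvate carrier gene Mpc1 has a near-identical pseudogene that also held reads in the deposited table. Mpc1 itself (ENSMUSG00000023861, chromosome 17, 8282904 to 8297661, plus strand) had 19.8, 18.5 and 18.1 CPM in XCON and 18.7, 20.9 and 19.3 CPM in XCKO, a log2 fold change of 0.07 (interval −0.23 to 0.36). The processed pseudogene Mpc1-ps (ENSMUSG00000091498, chromosome 12, 110858565 to 110858894), a copy made by reverse transcription of an mRNA, is 100% identical to Mpc1 over an aligned stretch of 261 bases and held more reads than the gene in every library. Mpc1-ps had 37.4, 27.7 and 38.3 CPM in XCON and 69.6, 71.6 and 77.4 CPM in XCKO.

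The pseudogene's libraries did not overlap between the groups, with a log2 fold change of 1.08 ± 0.16 (SE; edgeR adjusted p 0.011). With the reads of both summed, a choice made after seeing the data, the values were 57.2, 46.2 and 56.4 CPM in XCON and 88.3, 92.5 and 96.8 CPM in XCKO. The sum rose by 0.80 ± 0.15 on the log2 scale (SE; edgeR adjusted p 0.019). The table assigned 32% to 40% of these reads to Mpc1 in XCON and 20% to 22.6% in XCKO. Which locus the reads came from cannot be told apart over the identical stretch, so the value of Mpc1 alone is uncertain. Mpc1 also shares 480 exon bases with 4930506C21Rik on the opposite strand, which held 8.6% as many reads. Mpc2, its partner in the carrier, had 87.8, 74.1 and 83.4 CPM in XCON and 98.8, 102 and 115 CPM in XCKO, a log2 fold change of 0.36 ± 0.15 (SE; edgeR adjusted p 0.14) and no overlap between the groups.

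**Figure D5:**
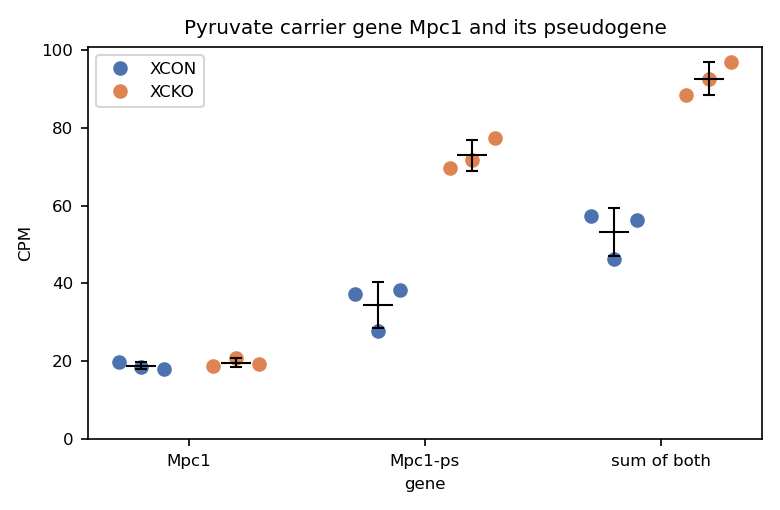
CPM of Mpc1, of its processed pseudogene Mpc1-ps and of their sum, with a point per library and the mean ± SD of the 3 libraries of each group. Mpc1 alone lies between 18.1 and 20.9 CPM in all libraries, while the sum is 46.2 to 57.2 CPM in XCON and 88.3 to 96.8 CPM in XCKO.

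Ratios between partners were compared over libraries as log2 ratios of FPKM, with a two-sided exact permutation test that cannot give a p below 0.1 for 3 against 3 libraries. Of 14 ratios, 5 did not overlap between the groups, each with an exact p of 0.1 and an adjusted p of 0.28 over the 14. The ratio of Pdk4 to Pdk2 was 1.27, 0.258 and 2.43 in XCON and 0.169, 0.062 and 0.0417 in XCKO. Pdk3 to Pdk2 was also lower in XCKO, with a mean log2 difference of −2.87 that includes a count of 2 reads for Pdk3 in XCKO 2.

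The other 3 were smaller and higher in XCKO. Sucla2 to Suclg2 was 0.334 to 0.365 in XCON and 0.408 to 0.518 in XCKO, Dlst to Ogdh 0.387 to 0.409 and 0.436 to 0.49, and Mpc2 to Mpc1 1.14 to 1.31 and 1.38 to 1.69. The last ratio carries the doubt about Mpc1 reads, since the log2 fold change of Mpc2 was 0.36 and that of Mpc1 with its pseudogene was 0.80. For Mdh1 to Mdh2 the mean log2 ratio was 2.00 ± 0.04 in XCON and 1.99 ± 0.17 in XCKO (SD, n = 3).

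Genes next to these in the pathway were counted in 5 lists, chosen with earlier results of these data known. The share called in them is therefore a description and not an independent test. Of 63 tested, 14 rose, 0 fell and 49 did not pass in edgeR (22.2%, against 9.27% of all genes). None was lower at an unadjusted p under 0.05, nor in DESeq2 or limma-voom. The 14 became 6 without XCON 1, 8 without XCON 2, 4 without XCKO 3 and 8 with library totals alone, where 1 was lower. Among the other TCA and pyruvate enzymes 6 of 16 rose (37.5%), with a list median of 0.65. Pcx, the pyruvate carboxylase that makes oxaloacetate for gluconeogenesis and for the cycle, rose from 474 ± 67 to 1080 ± 200 CPM (SD, n = 3), by 1.19 on the log2 scale (edgeR adjusted p 0.017), and passed whichever library was left out. The succinate dehydrogenase genes Sdhd and Sdhb rose by 0.92 and 0.85, and Fahd1, an oxaloacetate decarboxylase gene, by 0.75. Sdhd did not pass without XCKO 3 (adjusted p 0.055), while Sdhb passed in 2 and Fahd1 in 1 of the 6 fits. Sdha, another succinate dehydrogenase gene, chosen after its values were seen, rose by 0.76 and passed in 1 of the 6 fits.

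Lipoic acid is the cofactor attached to Dlat and Dlst. Of the 12 genes for making or attaching it and for its iron-sulfur supply, 3 rose (25%). Glrx5 and Nfu1, both of iron-sulfur cluster delivery, rose by 1.35 ± 0.19 and 0.94 ± 0.13 (SE) on the log2 scale and passed whichever library was left out. Mcat, of mitochondrial fatty acid synthesis, rose by 0.84 and passed in 2 of the 6 fits. Of the 5 genes of the branched-chain ketoacid dehydrogenase, a sister complex that also uses Dld, 1 rose (20%). Bckdha rose by 0.96 and the other 4 genes did not pass in edgeR. DESeq2 called 2 of the 5, the other being the phosphatase gene Ppm1k (adjusted p 0.0088), named after its values were seen. Of 16 carriers and transaminases, 2 rose (12.5%, near the 9.27% of all tested genes). Gpt, the alanine transaminase that makes pyruvate, rose from 187 ± 46 to 455 ± 61 CPM (SD, n = 3). Slc25a10, the dicarboxylate carrier, rose by 0.88. Bckdha did not pass without XCON 1, XCON 2 or XCKO 3 (largest adjusted p 0.084), Gpt without XCKO 3 (0.054), nor Slc25a10 without XCON 2 or XCKO 3 (0.055).

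Of 14 regulators, 2 rose (14.3%, against 9.27% of all tested genes). Esrra, which encodes the estrogen-related receptor α of mitochondrial gene control, rose from 19.7 ± 5.5 to 43.6 ± 7.9 CPM (SD, n = 3), and Sirt3, a mitochondrial deacetylase, from 32.3 ± 2.2 to 54.4 ± 6.4 CPM. Esrra did not pass without XCON 1, XCON 3 or XCKO 3, nor Sirt3 without XCON 1, each with a largest adjusted p of 0.066. Ppara and Foxo1, known regulators of Pdk4 and chosen after their values were seen, had log2 fold changes of 0.56 (interval 0.02 to 1.09) and −0.21 (−0.86 to 0.44), with adjusted p-values of 0.15 and 0.65 by edgeR.

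The authors' deposited table, from the same libraries, called 12 of the 31 genes at an adjusted p of 0.05, 10 higher and 2 lower. It called 10.2% of its 24709 genes with an adjusted p. That background includes genes with too few reads for the edgeR test used here, which covered 14873, so the 2 shares are not directly comparable. DESeq2 as run here called 2538 of 15226 genes. Beside the 5 genes called by edgeR here, the authors' table called Dlst, Suclg1, Mdh1, Mdh2, Pdha1 and Pdhb higher and Pdk4 lower.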

How the data were processed

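RNA from primary hepatocytes was sequenced in 6 libraries from Trizol-extracted RNA with a NEBNext Ultra kit, per the labels' protocols. The authors deposited raw counts per Ensembl gene, FPKM values, group means (a signal on the scale of normalized counts), log2 fold changes and their p-values, raw and adjusted, in 1 table. Bowtie 0.12.2 and 2 builds, mm8 and mm10, are named in the submitters' processing notes. The counter used, and whether it used strand, were not given in the sources used here. Of the table's gene identifiers, 99.8% were in GENCODE M21 (mm10) and 98.3% of those kept their start and end there.

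Total counts were 23919355 to 27240079. The 14873 genes passing edgeR's filterByExpr were scaled by TMM and tested with the quasi-likelihood F test (edgeR 4.0.16, R 4.3.3, robust) on group alone, with Benjamini-Hochberg adjustment and a threshold of 0.05. The biological coefficient of variation was 25.8%. SE is the absolute log2 fold change over the square root of F, and CPM uses the TMM-scaled total. FPKM served for ratios between genes. The analysis was tested on simulated data. Near-identical copies were sought with BLAST+ 2.17.0 among GENCODE transcripts (at least 90% identity over 150 bases).

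The alternatives were other scalings, filters, DESeq2 1.42.0, limma 3.58.1 (voom, and log2 FPKM with pseudocounts of 1 and 0.1), a gene length offset, a replicate block and leaving out each library. All 31 genes are named; from each neighbour list up to 4 genes past 0.05 with the smallest p are named. The members and lists were chosen with earlier results of these data known. The hepatocyte marker Tf was matched as Trf. The values of 1 gene of the neighbour lists are not reported here.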

Additional observations from a re-analysis of the deposited data

How the results depend on the processing

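Over the 19 alternative fits the median log2 fold change of the genes tested (28 to 31) ranged from 0.16 to 0.51 and lay 0.36 to 0.58 above the median of all genes. It was 0.16 with library totals alone. The count of 5 genes past 0.05 became 1 with library totals alone, 8 with no filter on low counts, 13 with DESeq2 and 8 with limma-voom. Leaving out 1 library gave 0 to 4. The 14 genes of the neighbouring lists became 8 with library totals and 23 with DESeq2, and 4 to 13 with 1 library left out. Over all genes the count of 1378 became 2358 with library totals, 2160 with no filter and 2538 with DESeq2, and 309 to 810 with 1 library left out. Of the calls over all genes, 56.2% were higher in XCKO, and 13.8% with library totals. Summing near-identical copies, an alternative chosen after seeing the data, gave 6 genes. Library totals turned the log2 fold changes of Idh2 (−0.05), Idh3g (−0.12), Ogdh (−0.06) and Mpc1 (−0.20), and the gene length offset turned that of Mpc1 (−0.06, and −0.07 with the replicate block), none of them past the test. No call of these genes reversed. The cause of these differences was not tested. Deviations of same-numbered libraries from their group means correlated at 0.06, 0.08 and −0.17. Those of differently numbered libraries correlated at −0.16 to 0.11. With 3 libraries per group, these values cannot decide whether the replicate numbers pair the libraries. With the replicate block, edgeR called 0 of the 30 genes (16 at an unadjusted p under 0.05; Pdk2 0.052, Fh1 and Sucla2 0.053), 6 neighbours and 322 of all genes, and with the block and the length offset together 0 (21 at an unadjusted p under 0.05), 5 and 219. Depth limits Me3, with 5 reads, and Pdk3, with 2 reads in XCKO 2. Standard errors of the log2 fold changes ran from 0.13 to 0.93.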
